A study of Rattus norvegicus with 4 samples.

Results

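Nr4a1, Nr4a2 and Nr4a3 are the 3 genes of the NR4A family of nuclear receptors, taken by their symbols from the 30560 genes of the count matrices (Ensembl identifiers ENSRNOG00000007607, ENSRNOG00000005600 and ENSRNOG00000005964). They were followed in single nuclei of the nucleus accumbens of adult Sprague-Dawley rats (90 to 120 days old). Daily intraperitoneal injections of cocaine (20 mg/kg) or saline were given for 7 days, and tissue was taken 1 h after the last injection as a 2 mm punch centred on the core. There were 4 libraries, a female and a male one for saline and for cocaine, each made from nuclei of 4 pooled rats. Each treatment therefore had 2 libraries, of which 1 was female and 1 was male, so the spread within a treatment includes the difference between the sexes and no value belongs to a single rat. Nuclei were sorted by a DNA dye and their RNA was counted as unique molecular identifiers (UMIs) with a 3′ droplet kit.

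NR4A receptors are transcription factors with no known natural ligand in the closed pocket of their ligand-binding domain, so their activity depends largely on how much of the protein is made. Nr4a1 (Nur77, NGFI-B) and Nr4a3 (NOR-1) are immediate early genes, switched on within minutes by calcium and cAMP signals through factors such as CREB. Nr4a2 (Nurr1) is in addition a lasting identity gene of some neurons, among them midbrain dopamine neurons and neurons of the deep cortex and claustrum. The receptors bind the NGFI-B response element as monomers, and Nr4a1 and Nr4a2 also bind DNA with retinoid X receptors. In the striatum, cocaine acts by raising dopamine, which drives cAMP signalling in medium spiny neurons with the D1 receptor.

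The letters upstream of the start sites are shown because the cAMP response element is the best-known input to these genes. RefSeq promoter windows (GRCr8) matched 2 of the 3 members, Nr4a1 and Nr4a2. Capitals mark the core of the cAMP response element, CGTCA on either strand (TGACG where it lies on the other strand), in the 250 bases before the start. Both windows lie within their gene's full span, since other transcripts of each gene start farther upstream.
Nr4a1 chr7:134259888-134260137 plus strand: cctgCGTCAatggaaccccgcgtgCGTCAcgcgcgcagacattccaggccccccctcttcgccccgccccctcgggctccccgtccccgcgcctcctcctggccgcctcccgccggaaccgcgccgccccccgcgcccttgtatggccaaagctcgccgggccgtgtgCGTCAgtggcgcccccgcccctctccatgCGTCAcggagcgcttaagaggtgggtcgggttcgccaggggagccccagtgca
Nr4a2 chr3:62104888-62105137 minus strand: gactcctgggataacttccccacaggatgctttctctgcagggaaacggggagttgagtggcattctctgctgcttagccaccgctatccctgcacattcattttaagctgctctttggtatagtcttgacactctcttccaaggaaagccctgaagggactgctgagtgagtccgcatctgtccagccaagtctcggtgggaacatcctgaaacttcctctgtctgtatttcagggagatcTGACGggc
The Nr4a1 window held 4 copies of the core, beginning 246, 226, 82 and 53 bases before the start, and the Nr4a2 window held 1, beginning 8 bases before it. Of 33469 RefSeq windows of this length, 18.2% held at least 1 core and 0.173% held 4 or more. The full element TGACGTCA was in neither window and in 1.59% of all windows. The NGFI-B response element AAAGGTCA (1.24% of all windows), the Egr site GCGTGGGCG (0.478%), the CArG box (1.5%) and the AP-1 site, TGACTCA or TGAGTCA (4.05%), were likewise in neither, each read on both strands. G and C made up 74.8% of the Nr4a1 window and 52.0% of the Nr4a2 window.

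After filters and the removal of likely doublets, 24843 nuclei were kept, 5904 to 6841 per library, with 28760036 to 36926507 UMIs per library and a median of 4206.5 to 4829.5 UMIs per nucleus. Nuclei were clustered without the 3 members and each cluster was named from marker genes, of which 91 of 97 were in the matrices, giving 13 named classes, of which 11 had at least 25 nuclei in every library. The 213 nuclei left unnamed held 7 UMIs of the members in all. Medium spiny neurons (MSNs) formed a D1-MSN-like class of 5292 nuclei, a D2-MSN-like class of 3820 and an eccentric MSN-like class of 1990. D1-MSN-like nuclei held the D1 marker list at 779 to 925 counts per 1e6 UMIs (CPM) and the D2 list at 24.1 to 59.2 CPM, against 16.9 to 42.0 and 1379 to 1709 CPM in D2-MSN-like nuclei. Any 2 libraries shared 10 to 18 cell barcodes.

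Across classes the members had distinct distributions (levels of different genes are not compared here, since UMIs were not scaled by length). Nr4a3 had 4917 UMIs in kept nuclei, of which 43.5% lay in nuclei of the D1-MSN-like class, 30.7% in the D2-MSN-like class, 9.42% in eccentric MSN-like and 7.99% in glutamatergic nuclei. Glutamatergic nuclei made up only 1.8% of all nuclei and had the highest level, 76.3 CPM ± 39.2 (SD, n = 4 libraries). D1- and D2-MSN-like nuclei followed at 49.3 ± 37.0 and 49.3 ± 27.2 CPM, and the ranges of these 3 classes overlapped. SDs over all libraries, here and for the other members, span both treatments and so include the treatment difference. Means of D1- and D2-MSN-like nuclei were 19.0 and 26.1 CPM in saline and 79.7 and 72.6 CPM in cocaine. Eccentric MSN-like nuclei had 37.2 ± 26.3, Pvalb/Pthlh interneuron-like nuclei 19.6 ± 20.6, other GABAergic nuclei 14.5 ± 4.87, astrocyte-like nuclei 11.4 ± 9.05 and Sst interneuron-like nuclei 10.2 ± 7.05 CPM. Oligodendrocyte precursor-like nuclei had 8.26 ± 3.05, microglia-like nuclei 1.82 ± 2.17 and oligodendrocyte-like nuclei 1.22 ± 0.728 CPM. Neighbours in this order overlapped between libraries, except that every precursor-like library lay above every microglia-like one. The oligodendrocyte-like nuclei, at 0.224 to 1.91 CPM, lay under every library of the MSN, glutamatergic and other GABAergic classes, whose lowest value was 8.70.

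For Nr4a1 the order again began with glutamatergic nuclei, at 53.2 CPM ± 13.7 (SD, n = 4), but oligodendrocyte precursor-like nuclei came next at 35.0 ± 3.97. D2-MSN-like nuclei had 32.1 ± 8.28, eccentric MSN-like nuclei 29.8 ± 5.93 and D1-MSN-like nuclei 27.2 ± 8.05 CPM, so the precursors and the MSN classes overlapped. Other GABAergic nuclei had 12.3 ± 3.73 and Pvalb/Pthlh interneuron-like nuclei 8.48 ± 1.13 CPM. Oligodendrocyte-like nuclei had 5.45 ± 1.94, astrocyte-like nuclei 4.31 ± 2.88, microglia-like nuclei 2.15 ± 4.30 and Sst interneuron-like nuclei 2.06 ± 2.47 CPM. Neighbours again overlapped, apart from Pvalb/Pthlh interneuron-like nuclei (7.62 to 10.0 CPM) and oligodendrocyte-like nuclei (3.10 to 7.46 CPM).

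Nr4a2 had 219 UMIs in all, and 147 of them (67.1%) were in the 446 glutamatergic nuclei. Its level there was 30.7 CPM ± 11.0 (SD, n = 4), with a range of 16.9 to 43.4, and the next class, astrocyte-like nuclei, had 4.89 ± 2.09 CPM, up to 7.33, so these 2 classes did not overlap. No D2-MSN-like nucleus had an Nr4a2 UMI, which allows a share of nuclei with an Nr4a2 UMI of up to 0.271 to 0.398% per library and sets no limit on nuclei that express the gene below detection. In D1-MSN-like nuclei there were 3 UMIs in 3 nuclei and in eccentric MSN-like nuclei 1, and each of these 4 nuclei also had UMIs of both Nr4a1 and Nr4a3.

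**Figure D1:**
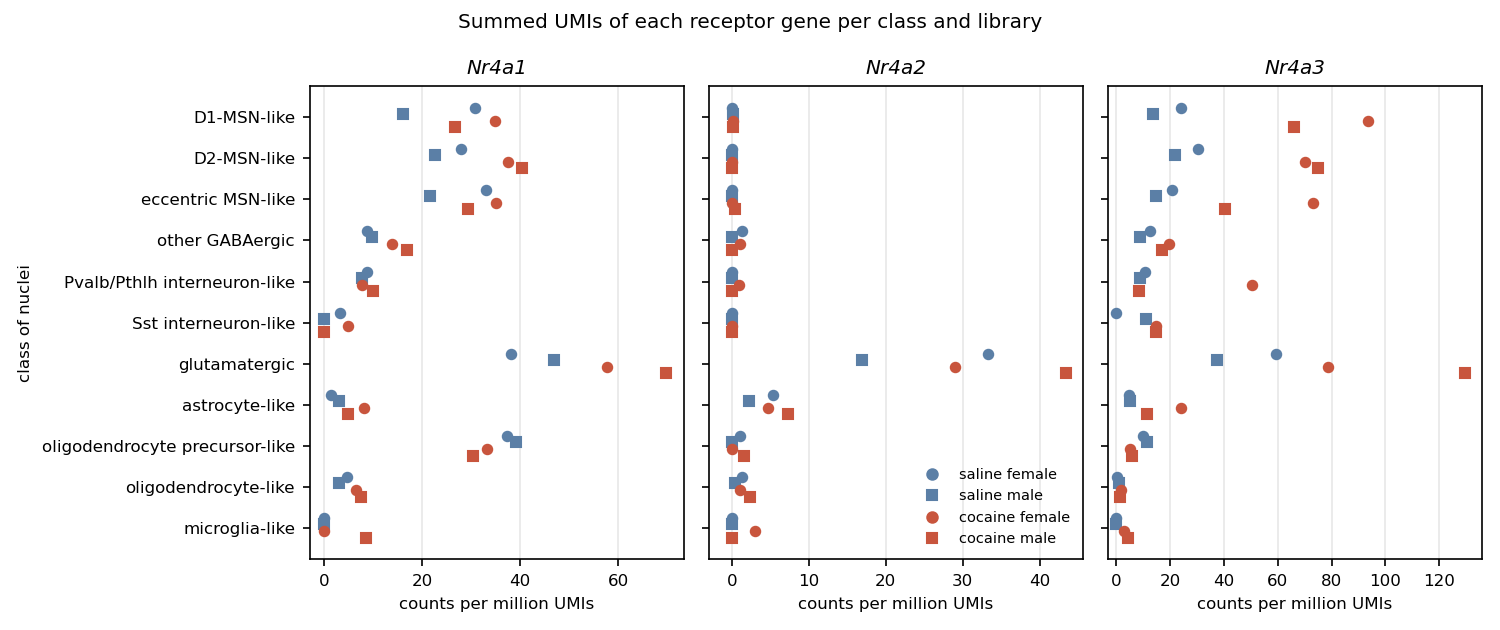
Level of each member, in CPM of the summed nuclei (horizontal axis), in the 11 classes with enough nuclei (vertical axis), with 1 point per library; circles are female and squares male libraries, blue saline and red cocaine. Nr4a2 stands out in glutamatergic nuclei alone (16.9 to 43.4 CPM), Nr4a1 is as high in oligodendrocyte precursor-like nuclei (30.3 to 39.1) as in MSNs, and the cocaine points of Nr4a3 lie to the right of the saline points in the 3 MSN classes.

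Nr4a3 rose after cocaine in all 3 MSN classes and was the gene with the smallest p in each. Over the 8 classes in which a member could be tested there were 14 tests, of which 13 had a positive difference and 4 passed, all of Nr4a3. In D1-MSN-like nuclei the saline libraries had 24.2 CPM (female, 219 UMIs in 900 nuclei) and 13.7 CPM (male, 151 UMIs in 1475). The cocaine libraries had 93.4 CPM (female, 1104 UMIs in 1474 nuclei) and 66.0 CPM (male, 666 UMIs in 1443). The groups did not overlap, and both sexes moved up. Of the 13346 genes tested in this class, 2282 were likewise higher in both cocaine libraries than in both saline ones. With sex as a covariate, edgeR's quasi-likelihood test on the summed counts gave a log2 fold change of 2.07 ± 0.10 (SE) and a Benjamini-Hochberg adjusted p of 1.33e-06, where 0.255% of the 13346 genes tested passed an adjusted p of 0.05. Without the sex term the same log2 value, 2.07, had an adjusted p of 0.0944, and a fit with neither the sex term nor the cocaine female library gave 1.77 with an adjusted p of 0.238 (sex cannot be fitted with 3 libraries, so every fit without a library lacks that term). Within sexes the log2 ratios were 1.93 (female) and 2.23 (male). The 2 saline libraries differed from each other in the same direction as the cocaine libraries, with the female library higher. With 2 libraries against 2, an exact permutation test of any single value cannot go below a two-sided p of 0.333.

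In D2-MSN-like nuclei Nr4a3 stood at 30.5 CPM (female) and 21.7 CPM (male) after saline and at 70.0 and 75.1 CPM after cocaine. Again the groups did not overlap, although here the male cocaine library was the highest. In this class 2142 of the 12722 genes tested were higher after cocaine without overlap. The log2 fold change was 1.44 ± 0.12 (SE; edgeR adjusted p = 0.000471), and 0.0629% of the 12722 genes tested passed. Eccentric MSN-like nuclei went from 20.9 and 14.6 CPM to 73.1 and 40.4 CPM, with the female cocaine library highest. Their log2 fold change was 1.65 ± 0.18 (edgeR adjusted p = 7.49e-17, with 0.841% of 11537 genes passing). That fit took the spread wholly from the one shared across genes, with no weight on the gene's own. DESeq2 gave 1.62 with an adjusted p of 0.125 in this class, and edgeR with neither the cocaine female library nor the sex term gave 1.15 with an adjusted p of 0.19. The log2 ratio was 1.81 between the female and 1.41 between the male libraries.

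Clusters within the 2 main classes carried different levels of the receptors. The D1-MSN-like class held a cluster led by Ebf1 and Reln (51.2 to 68.3% of its nuclei in each library), a cluster led by Htr4 (27.0 to 41.4%) and a small one led by Stac, Adamtsl1 and Drd3 (4.67 to 7.39%). Since these shares differed between libraries, the fit was repeated within clusters, a choice made after the values were seen. In the Ebf1/Reln-led cluster Nr4a3 went from 25.4 and 20.1 CPM in saline to 131 and 88.7 CPM in cocaine (female, male), which on the log2 scale was a rise of 2.24 ± 0.11 (edgeR adjusted p = 1.1e-20, with 1.64% of 12431 genes passing). In the Htr4-led cluster it went from 22.4 and 6.98 to 36.7 and 28.8 CPM, or 1.30 ± 0.22 (edgeR adjusted p = 0.00129, with 0.484% of 11990 genes passing). The difference between these clusters, -0.93 ± 0.27 on the log2 scale, did not pass (edgeR adjusted p = 0.534). In the Htr4-led cluster a single nucleus held 28 of the 55 Nr4a3 UMIs of the saline female library. The top nucleus held 10 of 34 in the saline male library. In cocaine it held 42 of 177 (female) and 34 of 102 (male). In the small cluster 54 of the 57 Nr4a3 UMIs came from the cocaine female library.

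Within the D2-MSN-like class, a small cluster led by Drd2, Casz1 and Dach1 (7.55 to 11.1% of the class) had the higher level of both receptors in every library. Its Nr4a3 went from 53.7 and 36.2 CPM in saline to 192 and 209 CPM in cocaine, against 28.1 and 19.9 to 60.8 and 61.2 CPM in the larger cluster. The log2 fold changes were 2.15 ± 0.20 in the small cluster (edgeR adjusted p = 1.05e-22, with 0.39% of 8199 genes passing) and 1.30 ± 0.12 in the larger (edgeR adjusted p = 5.83e-25, with 0.75% of 12531 passing). In the small cluster's male libraries, 2 nuclei held 75.0% of the Nr4a3 UMIs in saline and 58.3% in cocaine. In its female libraries the top nucleus held 31.6% in saline and 17.9% in cocaine. For each cluster the fit took the spread wholly from the one shared across genes. Nr4a1 rose in both as well, by 0.94 ± 0.21 in the small cluster (edgeR adjusted p = 0.00316; 77.7 and 46.5 CPM in saline, 136 and 104 CPM in cocaine) and by 0.54 ± 0.13 in the larger (edgeR adjusted p = 0.0119; 22.7 and 19.7, then 30.04 and 33.8 CPM). All 4 library values of both genes in the small cluster lay above those of the same library in the larger one.

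**Figure D2:**
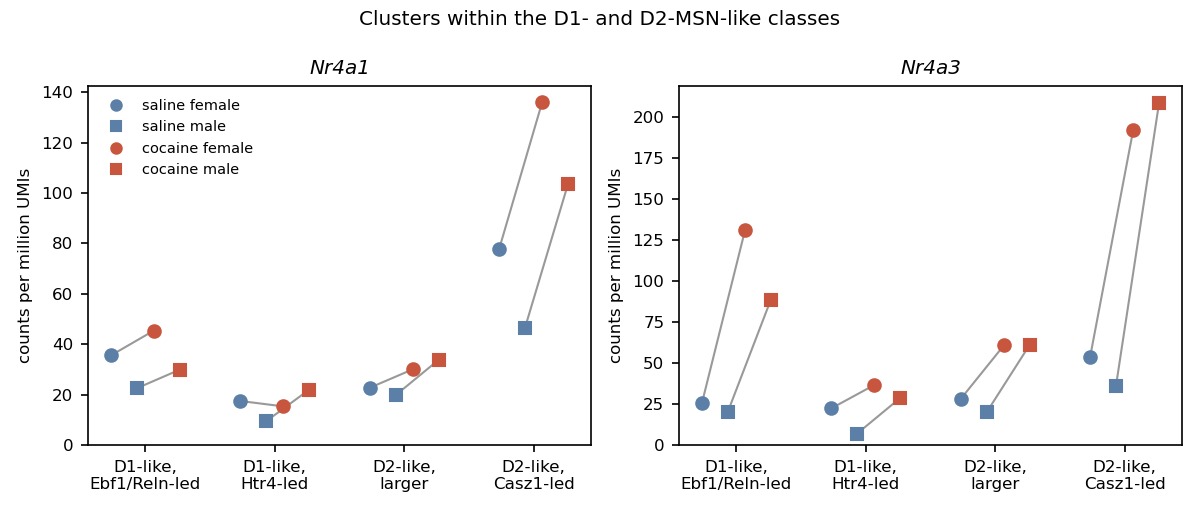
Nr4a1 and Nr4a3 in CPM (vertical axis) in 4 clusters of the D1- and D2-MSN-like classes, with lines joining the saline and cocaine library of each sex (circles female, squares male). Both receptors are highest in the Casz1-led D2-like cluster, where Nr4a3 reaches 192 and 209 CPM in the cocaine libraries. In the male one, 2 nuclei held 58.3% of its Nr4a3 UMIs. All 8 lines of Nr4a3 run upward.

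As counted and at 4000 UMIs per nucleus, the higher sum of Nr4a3 lay mainly in more UMIs per nucleus with one. The split depended on depth, and the share carried more of the rise at 1000 UMIs. There the mean share of D1-MSN-like nuclei with Nr4a3 was 1.42% in saline and 3.46% in cocaine. The share of D1-MSN-like nuclei with at least 1 Nr4a3 UMI was 7.67% (95% Wilson interval 6.1 to 9.59) in the saline female and 3.93% (3.05 to 5.05) in the saline male library. It was 8.68% (7.35 to 10.2) and 7.00% (5.79 to 8.43) in the cocaine female and male libraries, so the intervals overlapped in females and not in males. UMIs per nucleus with a UMI were 3.17 and 2.60 in saline and 8.63 and 6.59 in cocaine, well apart. Intervals cover counting error only, and medians of UMIs per nucleus in this class were 9753.5 and 7008 in saline and 7614.5 and 6464 in cocaine. When each nucleus was thinned to 4000 UMIs, the shares became 4.90 and 2.99% in saline and 6.95 and 5.83% in cocaine, and UMIs per positive nucleus 1.97 and 1.87 against 5.00 and 4.48 (48 to 199 nuclei per library were too shallow and left out). Oligodendrocyte-like nuclei, a class at the bottom of the order, had a UMI of Nr4a3 in 0.0497 to 0.309% of nuclei, with median depths of 1528 to 2011 UMIs. At a common depth of 1000 UMIs the shares were 1.05 to 4.14% in D1-MSN-like and 0.0238 to 0.18% in oligodendrocyte-like nuclei.

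D2-MSN-like nuclei showed the same arrangement. Shares with an Nr4a3 UMI were 9.28% (7.41 to 11.6) and 5.92% (4.60 to 7.59) in saline and 8.25% (6.70 to 10.1) and 7.67% (6.24 to 9.38) in cocaine, with overlapping intervals and a lower value after cocaine in females. UMIs per positive nucleus were 3.30 and 2.70 in saline and 6.72 and 6.75 in cocaine. After thinning to 4000 UMIs the shares were 5.81 and 4.37% against 6.33 and 6.48%, and UMIs per positive nucleus 2.17 and 2.09 against 4.41 and 3.78. At 1000 UMIs the mean share was 1.95% in saline and 3.22% in cocaine. In eccentric MSN-like nuclei, UMIs per positive nucleus went from 2.43 to 6.67 in females and from 2.19 to 3.41 in males.

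**Figure D3:**
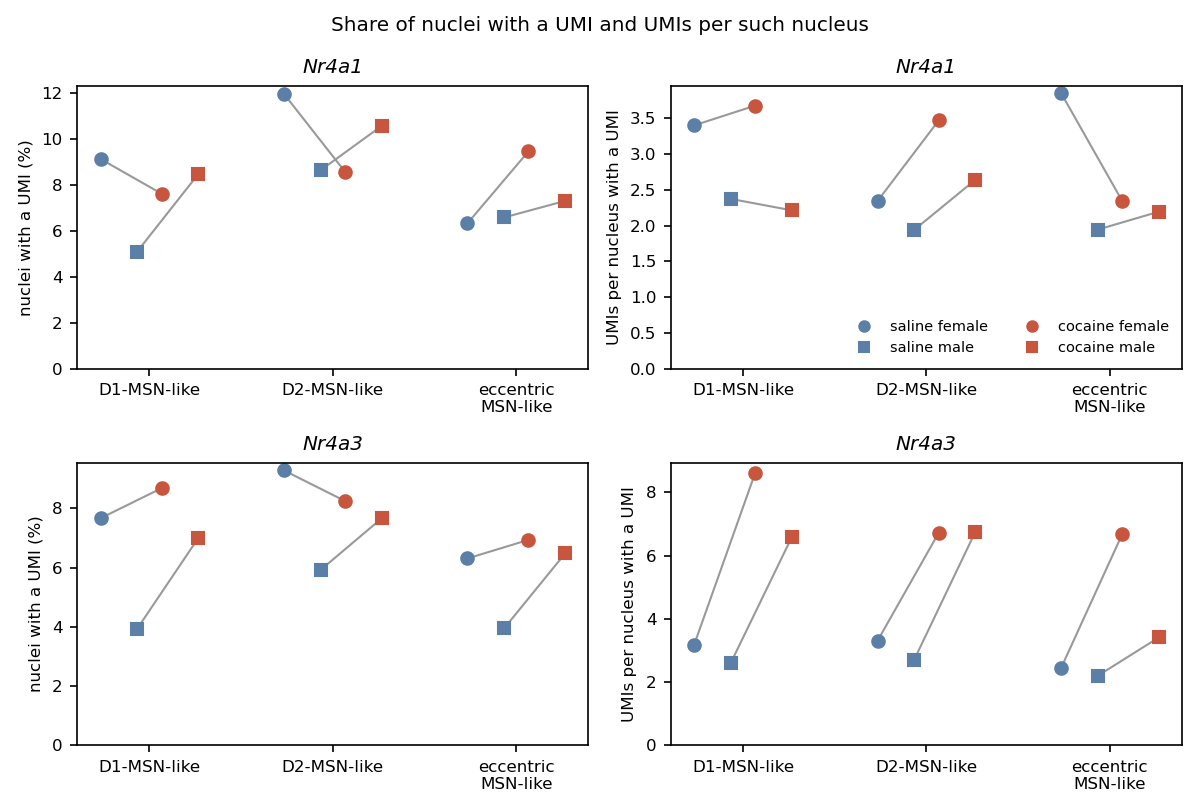
Share of nuclei with a UMI (left, in percent) and mean UMIs in nuclei that have one (right) for Nr4a1 and Nr4a3 in the 3 MSN classes, with lines joining the saline and cocaine library of each sex (circles female, squares male). For Nr4a3 the right-hand lines are steep (2.60 and 3.17 to 6.59 and 8.63 in D1-MSN-like nuclei) while the left-hand shares stay between 3.93 and 9.28%; the Nr4a1 lines run in both directions.

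In saline and cocaine libraries, a small set of nuclei held much of the Nr4a3 of the D1- and D2-MSN-like classes. In D1-MSN-like nuclei, those with 10 or more Nr4a3 UMIs numbered 3 in either saline library and 35 (female) and 17 (male) after cocaine, or 0.333 and 0.203% against 2.37 and 1.18% of the class. They held 27.9 and 22.5% of its Nr4a3 UMIs in saline and 75.5 and 69.8% in cocaine. The part above a fixed cut rises with the level itself. The top 1% of nuclei by Nr4a3 UMIs held 46.6 and 59.6% in saline and 49.5 and 66.8% in cocaine. Nuclei with exactly 1 Nr4a3 UMI were 3.33 and 1.90% of the class in saline and 2.44 and 3.05% in cocaine, so the groups overlapped at the low end. The highest single nucleus had 28 and 14 Nr4a3 UMIs in saline and 74 and 59 in cocaine.

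D2-MSN-like nuclei with 10 or more Nr4a3 UMIs numbered 4 and 2 in saline and 19 and 15 in cocaine, and held 32.5 and 16.2% against 71.1 and 65.5% of the Nr4a3 UMIs. The same top percentage of nuclei as above held 44.6 and 46.8% in saline and 47.4 and 60.3% in cocaine. D2-MSN-like nuclei were then counted by UMI class. Those with 3 to 4 Nr4a3 UMIs were 2.39 and 1.45% of the class in saline and 1.11 and 0.721% in cocaine, lower in both sexes. The variance of Nr4a3 UMIs over nuclei, divided by the mean, was 8.61 and 5.09 in D1-MSN-like saline libraries and 25.4 and 26.5 in cocaine ones, and 8.58 and 5.03 against 18.5 and 25.2 in D2-MSN-like nuclei. For counts spread beyond random draws, this ratio grows with the mean, which was higher after cocaine. It therefore cannot separate a more uneven spread from a higher level. When each nucleus was allowed to count at most 2 UMIs of a member, the log2 fold change of Nr4a3 fell to 0.77 for the D1-MSN-like class, 0.29 for the D2-MSN-like and 0.57 for the eccentric class, and none passed (edgeR adjusted p = 0.067, 0.616 and 0.418). Such a cap also removes more from libraries with a higher level.

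**Figure D4:**
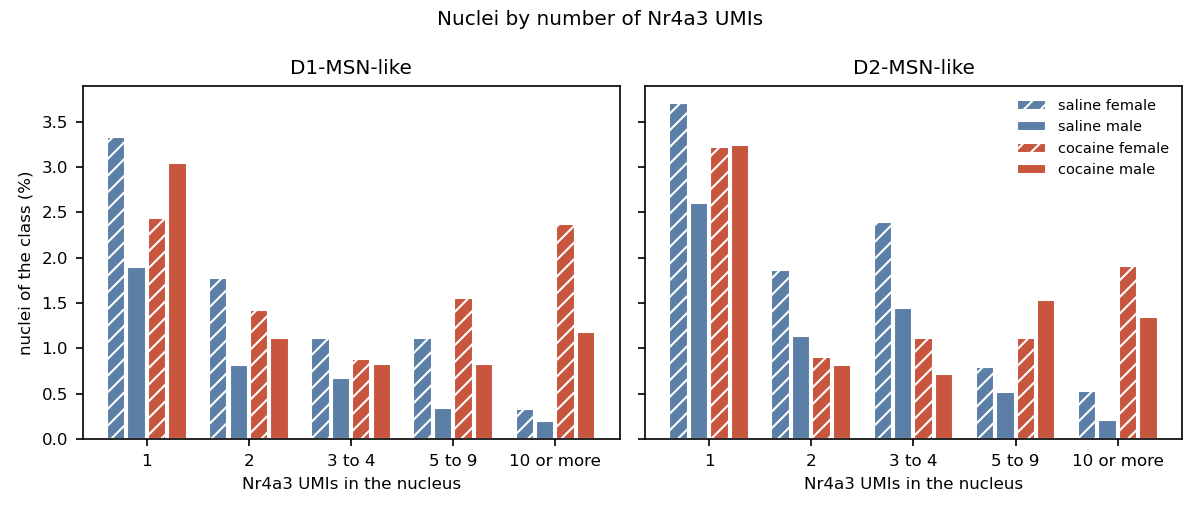
Percent of D1- and D2-MSN-like nuclei (vertical axis) with 1, 2, 3 to 4, 5 to 9 and 10 or more Nr4a3 UMIs, for each library (hatched bars female, plain bars male; blue saline, red cocaine). At 1 UMI the saline and cocaine bars overlap, while at 10 or more the D1-MSN-like cocaine bars stand at 2.37 and 1.18% over saline bars of 0.333 and 0.203%.

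Nr4a1 moved less, and no class as a whole passed for it. In D1-MSN-like nuclei it was 30.9 and 16.2 CPM in saline and 34.8 and 26.7 CPM in cocaine (female, male), so that the saline female library lay above the cocaine male one. The log2 difference was 0.40 ± 0.13 (edgeR adjusted p = 0.388), with log2 ratios of 0.16 between the female and 0.69 between the male libraries. Fits without a library, which also lacked the sex term, ran from -0.03 (no saline male library) to 0.92 (no saline female library, edgeR adjusted p = 0.0432), and these set libraries of both sexes against 1 sex. In D2-MSN-like nuclei the values were 27.8 and 22.7, then 37.5 and 40.4 CPM, with no overlap, as for 2142 of 12722 genes in this class. There the log2 difference was 0.58 ± 0.12 (edgeR adjusted p = 0.135). It passed with DESeq2's size factors in edgeR (0.58, adjusted p = 0.00505), with scaling by total counts (0.62, adjusted p = 0.000105) and without the filter on low counts (0.59, adjusted p = 0.000897). With neither the saline female library nor the sex term it was 0.74 (edgeR adjusted p = 0.0165). Eccentric MSN-like nuclei had 33.1 and 21.6, then 35.0 and 29.3 CPM (0.22 ± 0.18, edgeR adjusted p = 0.808). UMIs per Nr4a1-positive D1-MSN-like nucleus were 3.4 and 2.37 in saline and 3.68 and 2.21 in cocaine, ordered by sex and not by treatment.

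In the 3 MSN classes the ratio of Nr4a3 to Nr4a1 UMIs was higher in both cocaine libraries than in both saline ones. In D1-MSN-like nuclei there were 0.785 and 0.848 Nr4a3 UMIs per Nr4a1 UMI in saline and 2.68 and 2.47 in cocaine. In D2-MSN-like nuclei the ratio was 1.09 and 0.957 against 1.87 and 1.86, and in eccentric MSN-like nuclei 0.63 and 0.676 against 2.09 and 1.38. In oligodendrocyte precursor-like nuclei it was 0.27 and 0.296 in saline and 0.16 and 0.2 in cocaine. In other GABAergic nuclei the ratio was 1.43 and 0.885 in saline and 1.43 and 1.0 in cocaine, and in glutamatergic nuclei 1.56 and 0.8, then 1.36 and 1.85, so the groups overlapped in both.

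As counted, Nr4a1 in oligodendrocyte precursor-like nuclei was spread more evenly over nuclei than in MSNs. These cells, which give rise to myelinating oligodendrocytes, held 109 Nr4a1 UMIs in 104 of 1027 nuclei, and no nucleus had more than 2. The variance of UMIs over nuclei divided by the mean was 0.97, 0.979, 0.976 and 1.03 in the 4 libraries, against 3.89 to 6.29 in D1-MSN-like nuclei. In other GABAergic nuclei it was 1.14 to 1.68 and in Pvalb/Pthlh interneuron-like nuclei 0.953 to 1.97, closer to the precursors. As said above, this ratio can grow with the mean. Mean Nr4a1 UMIs per nucleus were 0.106 in precursor-like and 0.224 in D1-MSN-like nuclei. They were 0.0874 in other GABAergic and 0.0573 in Pvalb/Pthlh interneuron-like nuclei. The lowest D1-MSN-like ratio, 3.89, was in the saline male library, with 178 Nr4a1 UMIs in 1475 nuclei. The saline female precursor-like library had 0.97, with 37 in 260 nuclei. The Nr4a1 level in precursor-like nuclei was 37.4 and 39.1 CPM in saline and 33.2 and 30.3 CPM in cocaine, with the cocaine libraries lower in both sexes. That difference, -0.29 ± 0.31 on the log2 scale, did not pass (edgeR adjusted p = 0.955, with 0.0705% of 8509 genes passing). Oligodendrocyte-like nuclei, their mature descendants, had 4.71 and 3.10 CPM of Nr4a1 in saline and 6.54 and 7.46 CPM in cocaine (0.71 ± 0.40, edgeR adjusted p = 0.524, with 1.55% of 10914 genes passing). Thinned to 1000 UMIs, 2.96 to 3.91% of precursor-like and 0.368 to 0.815% of oligodendrocyte-like nuclei had an Nr4a1 UMI, so the share in precursors was above that in mature cells in all 4 libraries. General neuronal markers in precursor-like nuclei summed to 775 to 813 CPM, against 4616 to 4758 CPM in D1-MSN-like nuclei. MSN markers summed to 1274 and 1470 CPM in saline and 1229 and 1323 CPM in cocaine precursor-like nuclei; their part in the Nr4a1 level was not tested. Nr4a3 in the precursors had 10 and 8 UMIs in saline and 4 and 4 in cocaine, too few to be tested.

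Glutamatergic nuclei were the main site of Nr4a2, and none of the members passed there. The class numbered 30 (female) and 49 (male) nuclei after saline and 251 and 116 after cocaine, led by Slc17a7 and Tafa1. The number of these nuclei thus moved with treatment, and its part in the values below was not tested. Nr4a2 was 33.3 and 16.9 CPM in saline and 29.0 and 43.4 CPM in cocaine (0.44 ± 0.42 on the log2 scale, edgeR adjusted p = 1), lower after cocaine between the female and higher between the male libraries. Markers of glutamatergic neurons moved the same opposite ways, at 979 and 614.5 CPM in saline and 656 and 939 CPM in cocaine. At the finer clustering the class split into a cluster led by Tafa1, with 7 and 42 nuclei in saline and 188 and 57 in cocaine, and another with 23 and 7, then 63 and 59. The part of this make-up in the Nr4a2 values was not tested. It was detected in 16.7 and 12.2% of nuclei in saline and 12.4 and 17.2% in cocaine, on 5 and 6 nuclei in saline. In the saline female library 1 nucleus held 8 of the 14 Nr4a2 UMIs. Nr4a1 was 38.1 and 47.0, then 57.7 and 69.9 CPM (0.49 ± 0.29, edgeR adjusted p = 1), and Nr4a3 59.5 and 37.6, then 78.5 and 129 CPM (0.99 ± 0.35, edgeR adjusted p = 1). For both the cocaine libraries lay above the saline ones, as they did for 1488 of the 8622 genes tested. With edgeR 0.0% of 8622 genes passed in this class (224 genes at an unadjusted p under 0.05, and 0 with DESeq2).

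Summed over all nuclei, Nr4a3 rose from 18.1 and 13.9 to 61.8 and 53.7 CPM, a rise of 1.84 ± 0.07 on the log2 scale (edgeR adjusted p = 0.000789, with 0.0484% of 16527 genes passing); without the sex term the adjusted p was 0.0887 and with neither that term nor the cocaine female library 0.0577. Nr4a1 went from 20.5 and 16.4 to 29.6 and 28.2 CPM (0.64 ± 0.08, edgeR adjusted p = 0.0811). The adjusted p for Nr4a1 was 0.0482 with DESeq2 and also with scaling by total counts. Nr4a2 differed by 1.64 ± 0.29 (edgeR adjusted p = 0.124), and this sum moved with the number of glutamatergic nuclei given above. Among all nuclei, a change in the number of cells of a class and a change in RNA per cell cannot be told apart.

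Astrocyte-like nuclei had few Nr4a3 UMIs, 7 and 7 in saline and 36 and 14 in cocaine (4.63 and 5.23, then 24.1 and 11.4 CPM). The fit called a rise of 1.81 ± 0.44 (edgeR adjusted p = 0.00467, with 1.35% of 10348 genes passing). The call ended in 9 of 12 alternatives, among them each of the 4 fits without a library (and so without the sex term) and the fits by DESeq2, without the sex term and without doublet removal. MSN markers moved with it, at 1104 and 987 CPM in saline and 1439 and 1351 CPM in cocaine, with none of that list at 0. In nuclei with under 5 MSN-marker UMIs, Nr4a3 was 3.34 and 4.00 CPM in saline and 3.68 and 6.92 CPM in cocaine, while in those with 5 or more it was 6.52 and 8.89 against 48.7 and 17.8 CPM. Of the class's 64 Nr4a3 UMIs, 33 came from the cocaine female library in that second set. The part of MSN RNA in the rise was otherwise not tested. No member of the other glial classes passed.

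Other GABAergic nuclei had 12.5 and 8.70 CPM of Nr4a3 in saline and 19.8 and 16.9 CPM in cocaine (0.73 ± 0.28, edgeR adjusted p = 0.945, with 0.0249% of 12055 genes passing). Nr4a1 there was 8.76 and 9.83, then 13.9 and 16.9 CPM (0.67 ± 0.30, edgeR adjusted p = 0.945), so neither passed although no cocaine library fell among the saline ones. A higher level without overlap was seen for 2062 of the 12055 genes tested. In Pvalb/Pthlh interneuron-like nuclei, where counts were under the filter of the test, Nr4a3 had 11 and 7 UMIs in saline and 53 and 5 in cocaine, and 24 of the 53 came from 1 nucleus. Without that filter edgeR gave 1.605 ± 0.37 on the log2 scale (adjusted p = 0.00221), while DESeq2 gave 1.16 ± 0.95 (adjusted p = 1), and the cocaine male library lay under both saline ones. Sst interneuron-like nuclei had 0 and 4 UMIs in saline and 6 and 4 in cocaine, and cholinergic interneuron-like nuclei, which were too few to be tested, 2 and 4 against 7 and 0.

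Whether the effect of cocaine differed between classes was tested by the class by treatment term for 26 combinations of member and pair of classes or clusters, in 12 pairs. None passed with edgeR, and 5 had an unadjusted p under 0.05. The smallest adjusted p, 0.0632, was for Nr4a3 in oligodendrocyte precursor-like against D1-MSN-like nuclei, a difference of -2.96 ± 0.59 on the log2 scale that rests on 26 UMIs in the precursors. Nr4a3 differed by -0.62 ± 0.18 between D2- and D1-MSN-like nuclei (edgeR adjusted p = 0.345) and by -1.29 ± 0.23 between other GABAergic and D1-MSN-like nuclei (0.551). Between eccentric and D1-MSN-like nuclei it differed by -0.41 ± 0.20 (edgeR adjusted p = 1).

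Nr4a1 and Nr4a3 were found in the same nuclei far more often than their single shares would give. In D1-MSN-like nuclei, 45 and 23 nuclei of the saline libraries and 75 and 57 of the cocaine ones had UMIs of both, where independence within 10 strata of depth would give 7.27, 3.42, 11.0 and 9.74. The odds ratios pooled over these strata were 41.9 and 14.7 in saline and 49.2 and 22.3 in cocaine, ordered by sex more than by treatment. In D2-MSN-like nuclei both were seen in 41 and 28, then 54 and 53 nuclei, with odds ratios of 17.0 and 14.0, then 41.1 and 25.2. Of D1-MSN-like nuclei with 5 or more Nr4a3 UMIs, a threshold set after the values were seen, 93 of 108 (86.1%) also had Nr4a1, and of D2-MSN-like ones 68 of 79 (86.1%). Among D1-MSN-like nuclei with no Nr4a3 UMI the share with Nr4a1 was 2.75 to 4.84% over the libraries.

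In glutamatergic nuclei the overlap was looser. Within 3 strata of depth the odds ratios of Nr4a1 with Nr4a3 were 2.12 and 2.30 in saline and 6.98 and 7.30 in cocaine, on 4, 4, 29 and 17 nuclei with both. Nr4a2 with Nr4a3 gave 12.5 and 4.41, then 2.51 and 5.82, and Nr4a2 with Nr4a1 1.5 and 24.8, then 1.72 and 5.80. The saline values rest on 2 to 5 nuclei with both genes and carry no order.

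Other activity genes were set beside Nr4a3 in the same way. Across 26 activity genes with enough nuclei in the D1-MSN-like class, the median odds ratio of having a UMI in Nr4a3-positive nuclei was 5.57, and 22 were above 1 in all libraries. Across 10 comparison genes (housekeeping genes and MSN markers) the median was 1.23, and 2 were above 1 in all libraries. The highest medians were for Npas4 (30), a neuron-specific activity-dependent transcription factor, Btg2 (28.7), a growth-arrest immediate early gene, and Fosb (25.7), Fos (22.1) and Fosl2 (19.0), subunits of the AP-1 factor. Arc, which acts at synapses, had 12.7, Egr1 4.59 and Junb 5.51. Jund (1.07), an AP-1 subunit present in most cells, and Gadd45b (1.19) were near 1.

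D2-MSN-like nuclei had a median of 6.26 over 20 activity genes and of 1.02 over the comparison genes. Fosl2 (43.2), Fosb (39.8) and Fos (22.6) were at the top there. Drd2 (0.394) and Ppp1r1b (0.55), both markers of the class, were under 1 in all 4 libraries, so Nr4a3-positive D2-MSN-like nuclei had a UMI of these markers less often than others of the same depth. Drd2 was seen in 3714 of 3820 nuclei, and with Nr4a3 in 281 where the depth strata gave 288.3, a small gap. For Ppp1r1b it was 167 against 206.1. In D1-MSN-like nuclei the corresponding values were 1.27 for Drd1 and 0.835 for Ppp1r1b. These ratios are descriptions of nuclei that share libraries and pools.

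**Figure D5:**
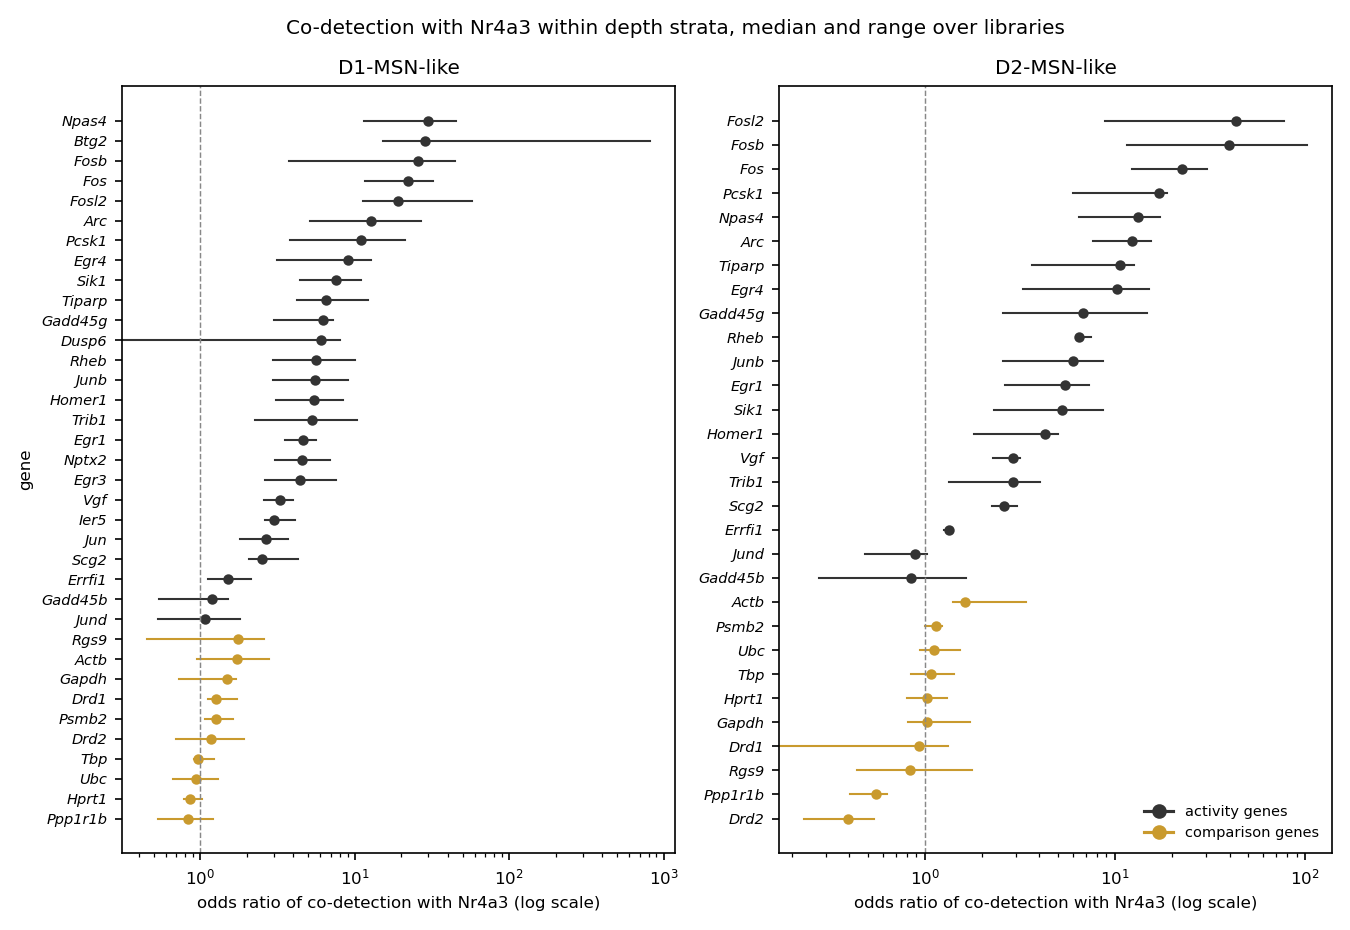
Odds ratio (horizontal axis, log scale) of having a UMI of each gene (vertical axis) in nuclei with an Nr4a3 UMI, within depth strata; points are medians and lines the range over the 4 libraries, dark for activity genes and ochre for comparison genes, and a line that reaches the left edge has a library at 0. Most activity genes lie right of 1, with Npas4 at 30 in D1-MSN-like and Fosl2 at 43.2 in D2-MSN-like nuclei, while medians of comparison genes lie between 0.394 and 1.75.

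The activity genes as a group leaned upward after cocaine in the same fits. In D1-MSN-like nuclei 5 of 30 tested rose and none fell, with a median log2 difference of 0.57 where the median of all genes was -0.00118. The 5 were Pcsk1, a prohormone convertase (1.19 ± 0.13), Fosl2 (1.22 ± 0.19), Tiparp (1.09 ± 0.14), the secretory granule gene Scg2 (0.57 ± 0.08) and the synaptic scaffold Homer1 (0.51 ± 0.07). In D2-MSN-like nuclei 2 of 28 rose, Pcsk1 (0.95 ± 0.14) and the transcription factor Egr4 (1.05 ± 0.14), with a median of 0.45. In eccentric MSN-like nuclei 5 of 23 rose, with Pcsk1 at 2.55 ± 0.32 and Junb at 0.80 ± 0.17, and a median of 0.54. Over all genes tested, edgeR called 0.187, 0.055 and 0.494% higher in the D1-MSN-like, D2-MSN-like and eccentric MSN-like classes. DESeq2 called 1, 0 and 0 of the list in these 3 classes. The list was made with results of these data known, so its direction is no independent evidence. Npas4, which had the highest median odds ratio with Nr4a3 in D1-MSN-like nuclei, differed by -0.08 ± 0.33 in D1-MSN-like nuclei and Fosb by 0.96 ± 0.29 (edgeR adjusted p = 0.34), so neither passed.

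Genes that work with the receptors showed no called change. The 3 retinoid X receptors, their dimer partners, had a median of -0.17 in D1-MSN-like nuclei, with Rxrg at 19.5 and 24.2 TMM-scaled CPM in saline and 15.3 and 19.9 in cocaine (edgeR adjusted p = 0.49). Other nuclear receptors (26 of 39 tested, median -0.08), the 7 corepressors and coactivators (-0.03), upstream CREB-pathway genes (16 of 18, -0.01) and reported targets of the family (4 of 9, -0.07) had 0 genes called with edgeR in that class. At an unadjusted p under 0.05 they had 1 (retinoid X receptors), 3, 1, 1 and 0 genes, and DESeq2 called 0. Of all 13346 genes tested in that class, 1159 were under that p. The same lists had 0 called genes with edgeR in D2-MSN-like and eccentric MSN-like nuclei (1, 4, 0, 2 and 2 in D2-MSN-like and 0, 3, 1, 0 and 0 in eccentric MSN-like nuclei at an unadjusted p under 0.05, in the same order, and 0 with DESeq2). Over all genes, 1160 of 12722 in D2-MSN-like and 1061 of 11537 in eccentric MSN-like nuclei were under that p. Cartpt, a reported target that encodes a neuropeptide of this region, was 33.3 and 51.9 TMM-scaled CPM in saline and 49.6 and 49.7 in cocaine in D1-MSN-like nuclei.

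Genes whose level followed the members most closely across the 44 class and library sums (log CPM of 11894 genes) differed between Nr4a1 and Nr4a3. For Nr4a3 they were Homer1 (Pearson r = 0.857), Mmd, Cap2, Chn1 and Cnih3, and for Nr4a1 Frmd6 (0.869), Kcnq5, Cacna2d1, Lrp1b and Arpp21. Nr4a1 and Nr4a3 had r = 0.692 with each other, which placed Nr4a3 at rank 76 for Nr4a1 and Nr4a1 at rank 409 for Nr4a3. The 44 sums share 4 libraries and differ mostly by class, so these values describe where genes are found. Nr4a2 was under the level needed for this ranking.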

How the data were processed

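Raw UMI counts per gene and nucleus were deposited by the authors, made with Cell Ranger 6.1.2 per the file headers and on genome build rn7 per the submitters' processing notes. Nuclei with under 200 genes or over 5% mitochondrial UMIs were removed, and the highest Scrublet scores were taken as doublets at 0.8% per 1000 barcodes. Nuclei of all libraries were clustered together without the members (scanpy 1.11.5, 2000 genes, 30 components, Leiden resolution 0.5) and named from marker lists. The listed activity genes, some sex-linked genes and mitochondrial genes were also left out of the clustering. Each gene was centred and scaled within each library before it. Counts were summed per library and class, filtered with filterByExpr, scaled by TMM and tested with edgeR 4.0.16 (quasi-likelihood, treatment plus sex, 1 residual degree of freedom per gene with the spread pooled across genes). Fits that left out a library held treatment only. DESeq2 1.42.0 (R 4.3.3) was an alternative. The fit was also run on simulated counts with a single fixed spread for all genes and no sex difference. Those settings differ from these pools, so that run does not show how the fit performs here. CPM here is UMIs per 1e6 UMIs of the summed nuclei. For shares at equal depth, nuclei were thinned to 1000, 2000 or 4000 UMIs. Each library is 1 pool of rats, so p-values rest on 4 pools and on a spread mostly shared across genes. In several fits a gene's own spread between pools had no weight. Among them were those of eccentric MSN-like and astrocyte-like nuclei and of both D2-MSN-like clusters. The members and lists were chosen with earlier results of these data known. Genes named are the members, the called or described genes of the lists, and the 5 genes most alike.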

Additional observations from a re-analysis of the deposited data

Results flagged for a closer look

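Nr4a2 in glutamatergic nuclei moved in opposite directions in the 2 sexes. The log2 ratio of cocaine to saline, with 0.5 UMI added to each sum, was -0.277 between the female libraries and 1.16 between the male ones. Each value compares 1 library with 1 other, on 14 and 78 UMIs in females and 9 and 46 in males, and the difference was not tested. A single nucleus held 8 of the 14 UMIs in the saline female library and 4 of the 9 in the saline male one. In the cocaine libraries the top nucleus held 14 of 78 (female) and 5 of 46 (male). The direction between the female libraries thus leans on 1 saline nucleus. The glutamatergic marker list, at 979 CPM (saline) and 656 CPM (cocaine) in females and 614.5 and 939 CPM in males, moved the same opposite ways.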

How the results depend on the processing

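Of 241 recomputed values of 27 results, 203 kept their direction and side of the threshold or stayed within the replicate spread. Capping nuclei at 2 UMIs gave Nr4a3 differences of 0.77 (D1-MSN-like), 0.29 (D2-MSN-like), 0.57 (eccentric), 1.44 (astrocyte-like) and 0.72 (all nuclei), and none passed. Without the sex term the Nr4a3 call was lost in D1-MSN-like (2.07), astrocyte-like (1.83) and all nuclei (1.84). DESeq2 lost it in eccentric MSN-like (1.62) and astrocyte-like nuclei (1.73), and total-count scaling (1.84) and keeping doublets (1.14) in astrocyte-like nuclei. Nr4a1 gained a call in D2-MSN-like nuclei with DESeq2 size factors (0.58), total counts (0.62), no filter (0.59) and in either cluster alone (0.54, 0.94), and in all nuclei with DESeq2 (0.64), total counts (0.65), doublets kept (0.64) and one-by-one gating (0.48). With doublets kept, Nr4a1 turned to -0.14 in glutamatergic and 0.17 in precursor-like nuclei. The cause was not tested.

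Leaving out 1 library, which also removes the sex term, gave Nr4a3 ranges of 1.69 to 2.53 (D1-MSN-like), 1.21 to 1.70 (D2-MSN-like), 1.15 to 2.03 (eccentric), 1.16 to 2.24 (astrocyte-like, lost in all 4) and 1.68 to 2.02 (all nuclei). For Nr4a1 it gave -0.026 to 0.92 (D1-MSN-like), 0.44 to 0.74 (D2-MSN-like) and -0.037 to 0.54 (eccentric), the negative values without the saline male library, although the ratio within each sex was positive in D1-MSN-like and eccentric MSN-like nuclei. Thinned to 1000 UMIs, the log2 ratio of Nr4a3 shares was 1.31 against 0.73 at 4000 UMIs and 0.51 unthinned in D1-MSN-like nuclei, and 0.74 against 0.35 and 0.10 in D2-MSN-like nuclei. Nuclei with 10 or more UMIs gave 2.69 and 2.27 against 1.67 and 1.59 for 5 or more. Fits within clusters and the threshold of 10 were chosen after seeing the data. The replicate number is the sex, so the sex term of the main fit already pairs the libraries of each sex. The labels give no other pairing.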
